A study of Mus musculus with 10 samples.

Results

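The genes described here mark the neurons of the inner retina, the cells that receive and process the photoreceptor signal. They are 31 gene symbols, chosen by name from markers of bipolar, amacrine, horizontal and ganglion cells, and all 31 were found among the 24736 symbols of the deposited mRNA table. RNA came from whole eyeballs of female Kunming mice, an outbred albino stock, labelled as 4 weeks old. Control animals (libraries control A and B) were kept in natural light, and the other animals (blue A, B and C) under an 18 W blue lamp inside a dark container; the sample titles carry day 14. The labels name no genetic change in either group. They leave it unsaid whether each library is a different animal, and the p-values therefore cover the spread between libraries, which may be technical.

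Bipolar cells carry the signal from photoreceptors inward. Horizontal cells feed back onto the photoreceptor terminals, and amacrine cells, most of which release GABA or glycine, shape the signal that reaches the ganglion cells. Ganglion cells send their axons through the optic nerve to the brain. Each class is defined by transcription factors that hold its identity and by the transporters, enzymes and cytoskeletal proteins of its function. Several of the 31 genes are also used outside the retina: Pax6, Tfap2a and Tfap2b in lens and surface epithelium, Thy1 in fibroblasts, and the neurofilament genes in the peripheral nerves that enter the eye.

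No identity gene passed the test between blue and natural light. Levels are CPM, counts scaled to a common library total, after TMM normalisation, a log2 fold change is blue light minus natural light, its standard error (SE) and 95% interval restate edgeR's quasi-likelihood test, and a call is a Benjamini-Hochberg adjusted p under 0.05 over all 18988 genes tested. By that rule 0 of the 31 genes were called, against 2.22% of all tested genes (0.664% higher and 1.55% lower). At an unadjusted p under 0.05 there were 7 of 31, against 16.3% of all tested genes, of which 4 were higher under blue light (7.03% of all genes) and 3 lower (9.27%). The 7 genes were Onecut2, Isl1, Grik1 and Pax6 on the higher side and Bhlhe23, Ebf3 and Slc6a9 on the lower side. DESeq2 called these same 7 genes at its adjusted threshold, against 8.7% of the genes for which it gave an adjusted p, and limma-voom called 0 of 31, against 2.41%. Control and blue libraries did not overlap in 9 of the 31 genes, against 35.6% of all tested genes. The median log2 fold change of the 31 was -0.017, beside -0.0056 over all tested genes, and the median size without regard to sign was 0.14 beside 0.18. None of the 31 reached a change of 2-fold, the range being -0.59 to 0.79.

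**Figure D1:**
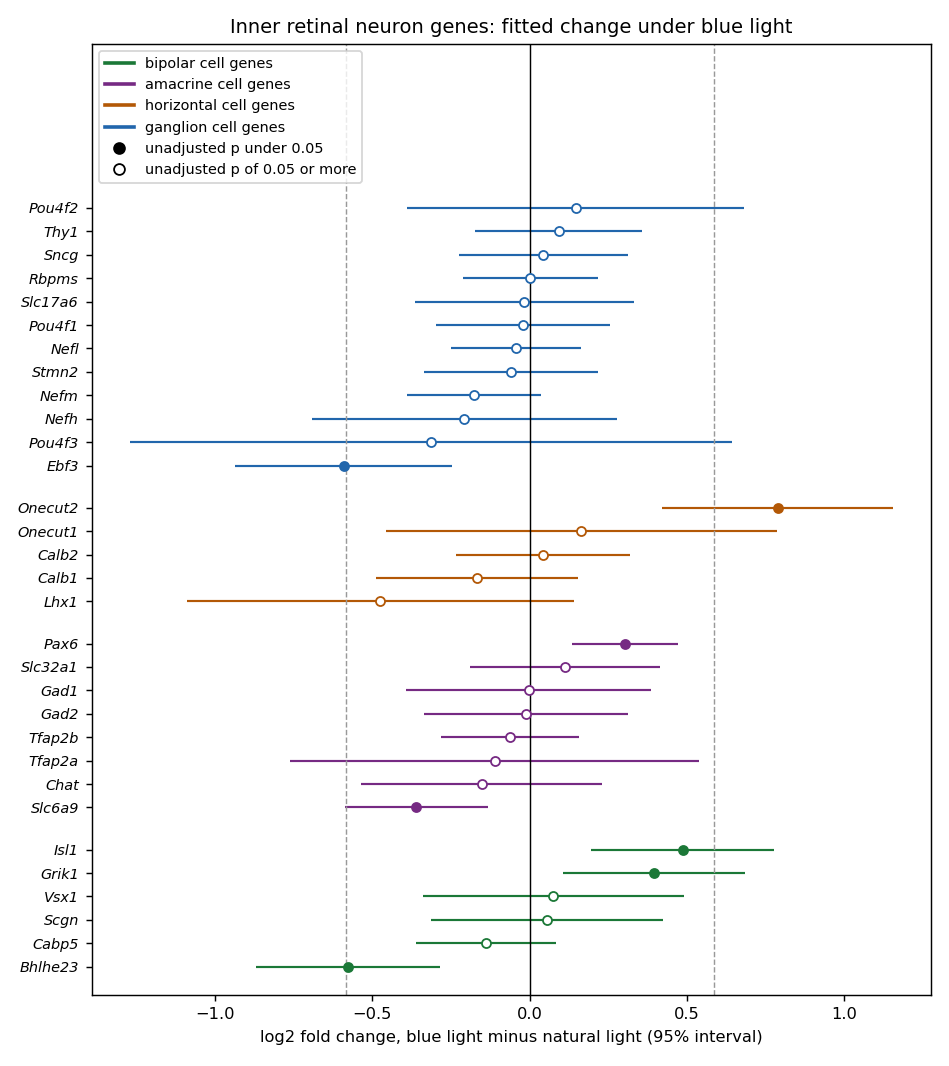
Fitted log2 fold change (blue light minus natural light, x axis) of the 31 identity genes by cell class, with 95% intervals from edgeR and dashed lines at a 1.5-fold change either way. Filled points mark the 7 genes with an unadjusted p under 0.05; the intervals of 19 genes lie between the dashed lines.

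For 19 of the 31 genes the 95% interval lay within a 1.5-fold change in either direction, as it did for 47.4% of all tested genes. In a whole eyeball, fewer cells of a type and less RNA per cell cannot be told apart, and each level is an average over retina, lens, cornea and attached tissue.

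The groups did not overlap in 2 of the 12 ganglion cell genes, against 35.6% of all tested genes. Of 12 genes 0 passed in edgeR, 1 (Ebf3) had an unadjusted p under 0.05, and DESeq2 called 1 and limma-voom 0. For each class, the shares over all tested genes were 2.22% called in edgeR and 16.3% at an unadjusted p under 0.05. DESeq2 called 8.7% of the genes for which it gave an adjusted p, and limma-voom 2.41%. The median log2 fold change of the ganglion genes was -0.032, and the 95% intervals of 8 lay within 1.5-fold, against 47.4% of all tested genes. Rbpms, an RNA-binding protein that labels nearly every ganglion cell of the rodent retina, stood at 33.6 and 31.8 CPM in control A and B, and at 32.6, 31.0 and 34.7 CPM in blue A, B and C. Its log2 fold change was 0.0025 (SE 0.087), with an interval from -0.21 to 0.22, and the groups overlapped. Thy1, a surface glycoprotein of ganglion cells and fibroblasts, was at 68.4 and 65.5 CPM in the controls and at 70.5, 79.5 and 64.0 CPM under blue light. The blue libraries bracketed the controls, and the log2 fold change of 0.092 (SE 0.11) had an interval from -0.17 to 0.36.

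Pou4f1, a POU-domain factor of ganglion cells, held 11.8 and 10.5 CPM in the controls and 10.9, 11.0 and 11.0 CPM under blue light (log2 fold change -0.021, SE 0.11, interval -0.30 to 0.25). All blue libraries lay between the control libraries. Its relative Pou4f2 stood at 5.87 and 3.97 CPM against 6.05, 5.16 and 5.13 CPM (log2 fold change 0.15). Pou4f3 ranged from 0.773 to 1.10 CPM in the controls and from 0.554 to 0.987 CPM under blue light, and its interval of -1.27 to 0.64 was the widest of the ganglion genes. The 3 paralogs are similar in sequence, and reads shared between them could have been split by the authors' counting.

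The neurofilament subunits, which fill the axons of ganglion cells and of other nerves, did not pass the test. Nefl, the light chain, was at 121 and 109 CPM in the controls and at 106, 117 and 111 CPM under blue light (log2 fold change -0.043, SE 0.084, interval -0.25 to 0.16). Nefm, the medium chain, was at 38.7 and 34.2 CPM against 32.3, 32.8 and 31.5 CPM, a log2 fold change of -0.18 (SE 0.087, edgeR adjusted p = 0.387). Its groups did not overlap, but the gap between control B and the highest blue library was smaller than the gap between the controls. Nefh, the heavy chain, held 31.6 CPM in control A and 19.9 CPM in control B, and the blue libraries at 23.1, 22.7 and 21.1 CPM lay between them. Its log2 fold change was -0.21 with both controls, -0.50 without control B and 0.19 without control A, so the choice of control set its direction. Slc17a6, the glutamate transporter VGLUT2 that loads ganglion cell vesicles, was at 27.8 and 21.4 CPM against 24.2, 26.3 and 22.5 CPM (log2 fold change -0.017, SE 0.14, interval -0.37 to 0.33). Gamma-synuclein (Sncg) and the growth-associated tubulin regulator Stmn2 had log2 fold changes of 0.043 and -0.059, with means of 29.8 ± 2.25 and 25.7 ± 3.69 CPM in the controls (SD, n = 2) and 30.8 ± 2.80 and 24.7 ± 0.736 CPM under blue light (SD, n = 3).

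Ebf3, a transcription factor of amacrine and ganglion cells and of mesenchyme, stood apart from the other ganglion genes. It was at 35.2 and 31.0 CPM in the controls and at 25.7, 20.2 and 20.1 CPM in blue A, B and C. Every blue library lay below both controls. The log2 fold change was -0.59 (SE 0.14, interval -0.94 to -0.25), a level 1.51-fold lower that did not pass in edgeR (adjusted p = 0.117) and passed in DESeq2 (adjusted p = 0.00870). Ebf3 was called in no other alternative tried, and its log2 fold change was negative in all 16 of them. Ebf3 overlaps the gene Gm10578, and summed with it had a log2 fold change of -0.51, in an alternative chosen after seeing the data.

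The bipolar cell genes lay on both sides of their control levels. Of 6 genes 0 passed in edgeR and 3 had an unadjusted p under 0.05, 2 higher and 1 lower; DESeq2 called these 3 and limma-voom 0. The median log2 fold change was 0.065. Isl1, a LIM-homeodomain factor of ON bipolar, cholinergic amacrine and ganglion cells, was at 36.2 and 35.1 CPM in the controls and at 49.6, 44.0 and 56.1 CPM in blue A, B and C. The groups did not overlap, and the spread among the blue libraries was wider than that between the controls. The log2 fold change was 0.49 (SE 0.12, interval 0.20 to 0.78, edgeR adjusted p = 0.122). Grik1, the kainate receptor subunit through which OFF bipolar cells sense glutamate, stood at 96.9 and 76.1 CPM against 112, 110 and 119 CPM. Its groups did not overlap either, although the controls were further apart than control A was from the lowest blue library (log2 fold change 0.39, SE 0.12, edgeR adjusted p = 0.186). Without control B its log2 fold change was 0.23, and without control A it was 0.61.

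Bhlhe23, a basic helix-loop-helix factor required for rod bipolar cells, went the other way. It was at 12.6 and 11.8 CPM in the controls and at 7.62, 8.28 and 8.61 CPM under blue light, with no overlap and a close spread in both groups. The log2 fold change was -0.58 (SE 0.12, interval -0.87 to -0.29), a level 1.49-fold lower with an edgeR adjusted p of 0.0824. Scaling on 81 other inner retinal genes was an alternative chosen after seeing the data. It moved the median log2 fold change of all tested genes from -0.0056 to -0.066, and Bhlhe23 moved with it, from -0.58 to -0.64. Under this scaling Bhlhe23 was the only one of the 31 to pass (edgeR adjusted p = 0.0495), against 2.88% of all tested genes. The other bipolar genes overlapped between the groups. The homeobox factor Vsx1 of OFF bipolar types was at 16.8 and 14.7 CPM against 13.4, 18.0 and 18.4 CPM (log2 fold change 0.075, SE 0.17). Cabp5, a calcium-binding protein of rod and cone bipolar cells, was at 96.0 and 82.5 CPM against 77.9, 82.8 and 82.3 CPM (log2 fold change -0.14, SE 0.090). The calcium sensor Scgn had a log2 fold change of 0.055, from 28.1 ± 4.72 CPM (SD, n = 2) to 29.2 ± 3.50 CPM (SD, n = 3).

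Among the amacrine cell genes the GABA markers overlapped between the groups and the glycine transporter was lower in every blue library. Of 8 genes 0 passed in edgeR, 2 had an unadjusted p under 0.05, and DESeq2 called 2 and limma-voom 0; the median log2 fold change was -0.037. Gad1, the GABA-synthesising decarboxylase GAD67, was at 127 and 98.8 CPM in the controls and at 95.4, 126 and 116 CPM under blue light. Controls and blue libraries were similarly spread, and the log2 fold change was -0.0031 (SE 0.16, interval -0.39 to 0.39). Gad2, its isoenzyme GAD65, had a log2 fold change of -0.012, and the vesicular GABA and glycine transporter Slc32a1 stood at 23.4 and 24.2 CPM against 22.3, 27.6 and 27.5 CPM (log2 fold change 0.11, SE 0.12).

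Slc6a9, the glycine transporter GlyT1 of glycinergic amacrine cells, was at 196 and 183 CPM in the controls and at 138, 144 and 162 CPM in blue A, B and C. No blue library reached the lower control. The log2 fold change was -0.36 (SE 0.092, interval -0.59 to -0.13), with an adjusted p of 0.135 in edgeR and 0.0346 in DESeq2. On chromosome 4 (GRCm38, the assembly called mm10) Slc6a9 spans 117835258 to 117869305, and its end shares 51 bases with Ccdc24 (117869255 to 117872661), which fell by 2.29 on the log2 scale (edgeR adjusted p = 0.0191). No source used here says whether counting used strand, so reads in the shared bases could go to either gene. Summed with Ccdc24, an alternative chosen after seeing the data, the locus was at 303 and 257 CPM in the controls and at 151, 166 and 182 CPM under blue light, and the sum fell by 0.75 (SE 0.11, edgeR adjusted p = 0.0349). Ccdc24 alone went from a mean of 90.0 to 18.3 CPM, the greater part of the fall in the sum, so this is not a call of Slc6a9.

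Pax6, the paired-homeodomain factor of amacrine and ganglion cells, was at 247 and 253 CPM in the controls and at 323, 300 and 303 CPM under blue light. All blue libraries lay above both controls, with a small spread in each group. The log2 fold change was 0.30 (SE 0.069, interval 0.13 to 0.47, edgeR adjusted p = 0.107), a level 1.23-fold higher, and Pax6 passed in DESeq2 (adjusted p = 0.000283). The AP-2 factors of amacrine cells did not share this pattern. Tfap2b stood at 139 and 125 CPM against 136, 120 and 125 CPM (log2 fold change -0.062). Tfap2a stood at 58.1 and 60.7 CPM in the controls, at 63.9 and 65.4 CPM in blue A and B, and at 35.5 CPM in blue C (log2 fold change -0.11). Its low library, blue C, also had the lowest mean log2 level of the surface epithelium list, though not the lowest sum. Of the 11 tested genes of that list 0 were called, and by sign 11 were positive and 0 negative. They summed to 5302 and 6421 CPM in the controls and to 6951, 6267 and 5523 CPM under blue light, with none at 0. What part that tissue has in Tfap2a or Pax6 was not tested. Of the 31 genes 10 overlap another gene of the table, and their values are uncertain to that extent. Among them are Pax6 (Elp4 and Pax6os1), Slc32a1 (Gm14204), Nefh (Ap1b1), Chat (Slc18a3) and Ebf3 (Gm10578). The cholinergic marker Chat, choline acetyltransferase, was at 5.85 and 6.62 CPM against 5.11, 6.09 and 5.62 CPM (log2 fold change -0.15, SE 0.16).

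**Figure D2:**
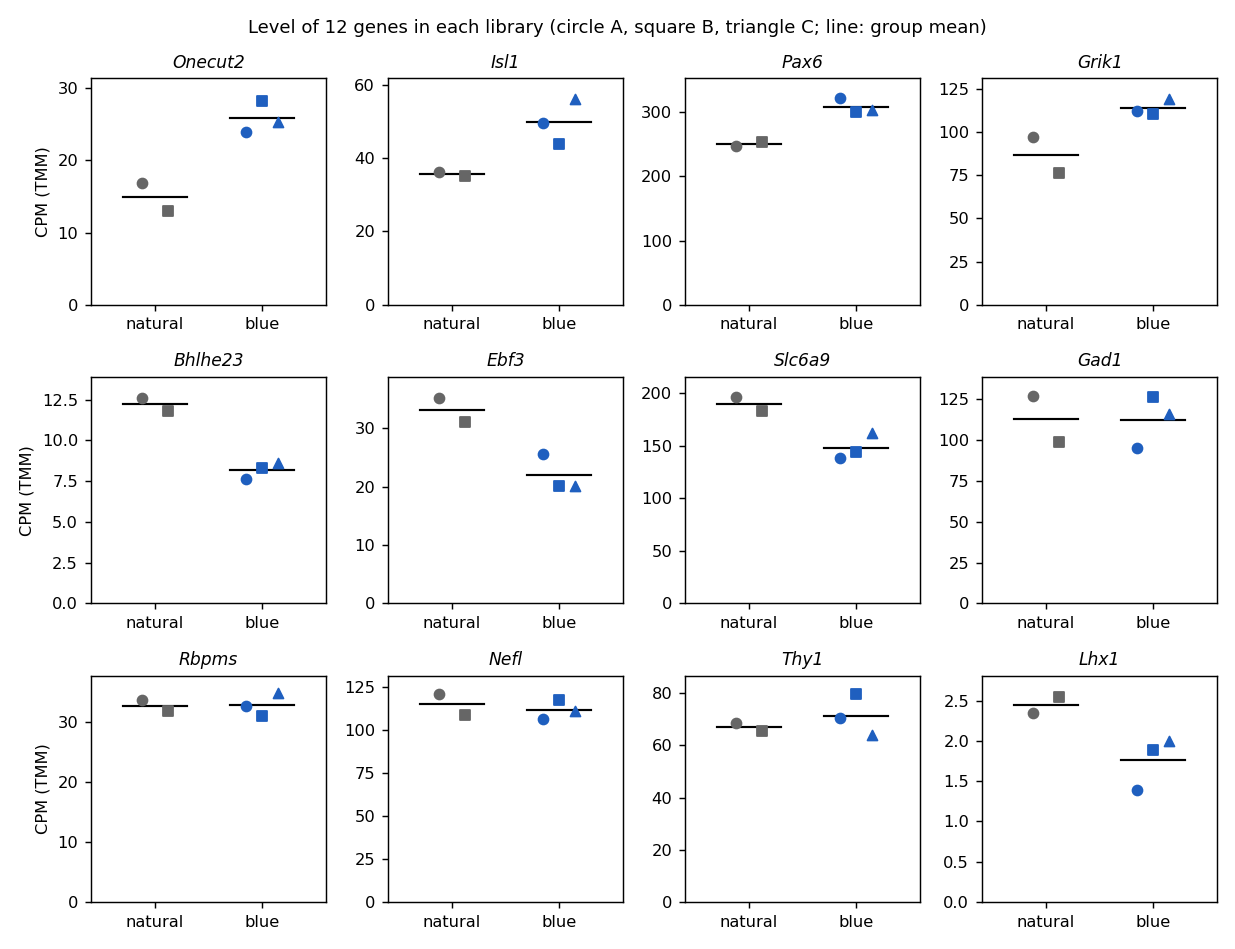
TMM-scaled CPM (y axis, from 0) of 12 genes in each control and blue library, with the group mean as a line. In the first 7 panels, from Onecut2 to Slc6a9, the groups do not overlap; Gad1, Rbpms, Nefl and Thy1 overlap, and Lhx1 does not.

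The 5 horizontal cell genes held Onecut2, the gene with the largest log2 fold change of the 31. In edgeR 0 passed, 1 had an unadjusted p under 0.05, and DESeq2 called 1 and limma-voom 0; the median log2 fold change was 0.042. Onecut2, a cut-homeodomain factor of horizontal and ganglion cells, was at 16.9 and 13.0 CPM in the controls and at 23.9, 28.3 and 25.2 CPM in blue A, B and C. The lowest blue library lay well above the higher control. The log2 fold change was 0.79 (SE 0.15, interval 0.42 to 1.16), a level 1.73-fold higher, with an adjusted p of 0.0668 in edgeR and 0.000129 in DESeq2. Its relative Onecut1 was at 3.30 and 3.02 CPM against 2.71, 4.40 and 3.50 CPM (log2 fold change 0.16, SE 0.25), with overlapping groups. Lhx1, the LIM-homeodomain factor that places horizontal cells in their layer, was at 2.34 and 2.55 CPM against 1.40, 1.88 and 1.999 CPM. No blue library reached a control, but at this low level the log2 fold change of -0.48 had an SE of 0.25 and an interval from -1.09 to 0.14 (edgeR adjusted p = 0.423). The calcium buffers overlapped between the groups. Calb1, calbindin, was at 26.5 and 20.7 CPM against 19.9, 21.5 and 21.6 CPM (log2 fold change -0.17, SE 0.13), and Calb2, calretinin, which also marks amacrine and ganglion cells, at 111 and 97.3 CPM against 97.2, 119 and 106 CPM (log2 fold change 0.042).

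The sequence before the start site is shown for Isl1, Bhlhe23 and Slc6a9. Of the 7 genes with an unadjusted p under 0.05, these had a promoter entry and a window outside every annotated gene span. Onecut2 and Grik1 had no entry, and the windows of Pax6 and Ebf3 lay within an annotated span. Each run holds the 250 bases before the annotated start, 5′ to 3′ on the gene's strand, from RefSeq (GRCm38.p6): Isl1 at chr13:116309689-116309938 on the minus strand, Bhlhe23 at chr2:180776901-180777150 on the minus strand and Slc6a9 at chr4:117835008-117835257 on the plus strand. Capitals mark matches on either strand to motifs of the factor families among the 31 genes.
Isl1: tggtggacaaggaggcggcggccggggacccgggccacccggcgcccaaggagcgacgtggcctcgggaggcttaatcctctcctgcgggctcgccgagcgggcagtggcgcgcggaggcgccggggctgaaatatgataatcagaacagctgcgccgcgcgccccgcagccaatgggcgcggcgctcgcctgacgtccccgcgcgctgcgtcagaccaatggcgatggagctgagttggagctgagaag
Bhlhe23: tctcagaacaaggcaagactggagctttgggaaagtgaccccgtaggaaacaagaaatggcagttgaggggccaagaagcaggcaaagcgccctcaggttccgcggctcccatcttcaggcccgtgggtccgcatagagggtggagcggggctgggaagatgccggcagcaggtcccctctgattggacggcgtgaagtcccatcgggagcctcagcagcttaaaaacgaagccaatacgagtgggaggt
Slc6a9: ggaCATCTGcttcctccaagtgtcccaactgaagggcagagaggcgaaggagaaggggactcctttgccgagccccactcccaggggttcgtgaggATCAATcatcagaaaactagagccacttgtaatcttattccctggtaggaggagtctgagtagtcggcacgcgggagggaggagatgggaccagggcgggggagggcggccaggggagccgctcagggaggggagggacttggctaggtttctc

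The motifs searched were GCCNNNGGC for the AP-2 factors, TAATTA for LIM and paired-class homeodomains, ATCAAT for the ONECUT factors, the palindromic motif of the EBF factors and the E-boxes CAGATG and CATATG for basic helix-loop-helix factors; matches of these motifs did not overlap in the runs shown. Slc6a9 held 1 ATCAAT and 1 CAGATG, the latter on the minus strand, and Isl1 and Bhlhe23 held none. Of the 31 genes 20 had an entry. GCCNNNGGC was in 3 of these 20 against 13.6% of 27025 promoters, CAGATG in 3 against 14.5%, ATCAAT in 2 against 6.97%, TAATTA in 1 against 4.90%, and CATATG and the EBF motif in 0 against 3.47% and 0.788%. These counts describe letters in a window and are not binding sites.

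Ratios between genes of 1 library do not depend on scaling. The 12 pairs were chosen after the values were seen, mostly around genes whose groups did not overlap, so their separation is a description with no test: 11 of the 12 ratios did not overlap between the groups, against 41.3% of the 465 pairs among the 31 genes. The Onecut2 to Onecut1 ratio of estimated counts was 5.12 and 4.30 in the controls and 8.81, 6.43 and 7.20 under blue light. The Slc6a9 to Gad1 ratio, a glycine against a GABA marker, was 1.55 and 1.85 in the controls and 1.44, 1.14 and 1.40 under blue light. The Grik1 to Cabp5 ratio was 1.01 and 0.922 against 1.44, 1.33 and 1.45, and the Ebf3 to Rbpms ratio was 1.05 and 0.976 against 0.787, 0.651 and 0.578. In each of these pairs both controls lay on the same side of all blue libraries. Gad1 to Gad2, the 2 GABA enzymes, overlapped, at 3.16 and 3.04 against 2.98, 3.26 and 3.11.

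**Figure D3:**
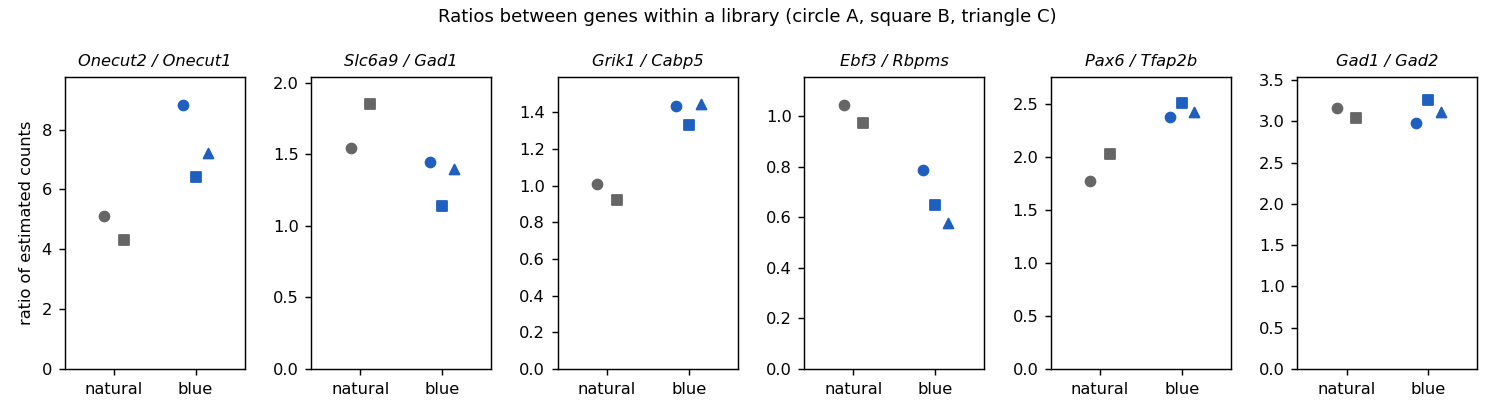
Ratio of estimated counts of 2 genes within each library (y axis, from 0), for 6 of the 12 pairs, in control and blue libraries. The first 5 ratios separate the groups and Gad1 to Gad2 does not.

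The controls differed from each other across the set. Control A was above control B in 25 of the 31 genes, against 49.8% of all tested genes. A class level, the mean over its genes of log2(CPM + 0.5) centred on each gene's 5-library mean, was for the ganglion genes 0.15 in control A, -0.054 in control B, and -0.015, 0.0016 and -0.083 under blue light. For the bipolar genes it was 0.071 and -0.13 in the controls and -0.078, 0.0058 and 0.13 under blue light. Amacrine genes stood at 0.062 and -0.013 against -0.064, 0.064 and -0.051, and horizontal genes at 0.045 and -0.14 against -0.14, 0.17 and 0.064. In all 4 classes the levels of the groups overlapped. Without control A the median log2 fold change of the 31 genes was 0.12, and without control B it was -0.11, so its sign rested on which control was used.

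**Figure D4:**
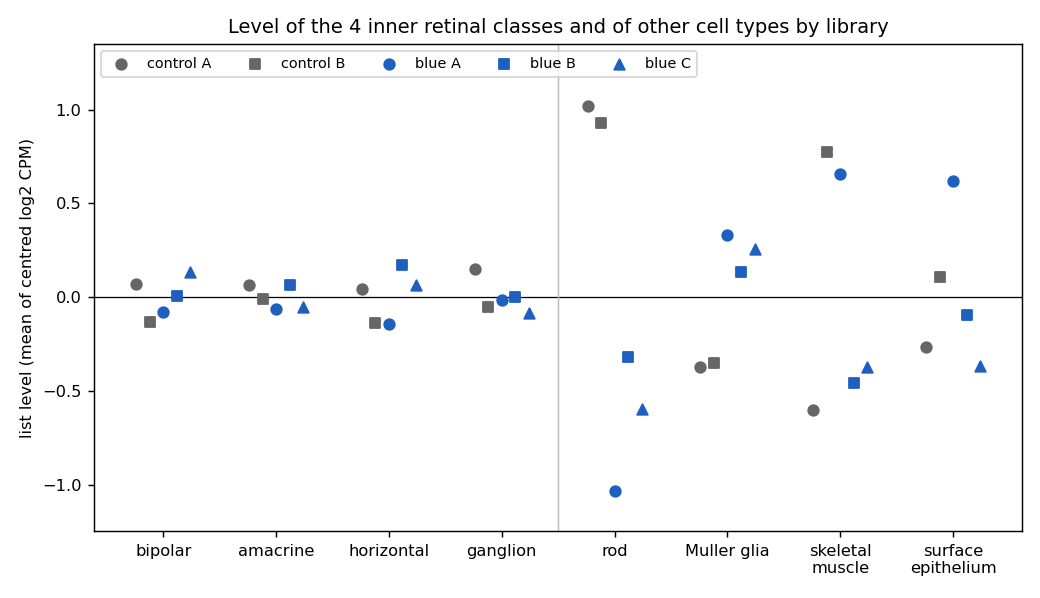
List level by library (mean over genes of centred log2(CPM + 0.5), y axis) for the 4 inner retinal classes and for 4 lists of other cell types. The inner retinal classes lie between -0.14 and 0.17 in every library, rods lie at 0.93 or above in the controls and at -0.32 or below under blue light, and skeletal muscle is high in control B and blue A.

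Markers of other cells moved over the same libraries. Of 16 rod genes 13 were called lower in edgeR, and all 16 had a negative log2 fold change. The 16 summed to 28350 and 26735 CPM in the controls and to 5530, 9993 and 7894 CPM under blue light, with none at 0. Of 10 Muller glia genes 3 were called higher in edgeR and 0 lower, with 8 log2 fold changes positive and 2 negative. They summed to 3874 and 4041 CPM against 5183, 4661 and 4906 CPM, with none at 0. Pax6 is also present in Muller glia, lens and surface epithelium; of 18 lens genes 0 were called, and they summed to 52301 and 51779 CPM against 51815, 53546 and 55719 CPM, with none at 0. The 15 skeletal muscle genes, of which 0 were called, summed to 2334 and 4739 CPM in the controls and to 4812, 2293 and 2250 CPM under blue light, with Myh13 at 0 in control A. The ribosomal transcript Rn45s took 4.30% of the counts of control A and 14.1% of those of control B, against 10.8%, 8.69% and 14.4% of blue A, B and C, and control A had the lowest share. What part these cell types or this share have in the results above was not tested. Library totals ran from 87071487 to 107660103 estimated counts.

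Further genes of the same classes, listed from textbook knowledge, gave 3 calls in edgeR, where 2.22% of all tested genes were called. Of 20 other bipolar genes 1 was called higher and 1 lower. By sign 12 were positive and 8 negative, and the median log2 fold change was 0.11. Prkca, the protein kinase C alpha of rod bipolar cells, was at 437 and 445 CPM in the controls and at 234, 248 and 281 CPM under blue light, and fell by 0.79 (SE 0.093, edgeR adjusted p = 0.0218). Kcng4, a potassium channel modifier subunit of some bipolar and ganglion cell types, was at 15.8 and 17.8 CPM against 37.2, 41.6 and 48.3 CPM, and rose by 1.33 (SE 0.14, edgeR adjusted p = 0.0183). The groups of both genes were separate, with Prkca lower and Kcng4 higher in every blue library. Of 24 other ganglion genes tested 1 was called higher and 0 lower. By sign 15 were positive and 9 negative, with a median of 0.075. Prph, peripherin, an intermediate filament of peripheral neurons and of some ganglion cells, was at 1.10 and 2.72 CPM in the controls and at 21.8, 31.1 and 33.3 CPM under blue light. It rose by 3.92 (SE 0.45, edgeR adjusted p = 0.0217), a level 15.2-fold higher, while the neurofilament genes above were not called. Jam2, an adhesion molecule, was the next of that list, at 171 and 155 CPM against 108, 124 and 119 CPM (log2 fold change -0.48, edgeR adjusted p = 0.0670). Of 10 Schwann cell genes, markers of the peripheral nerve sheath, 0 were called in edgeR, and DESeq2 called 2 higher and 0 lower. By sign 6 were positive and 4 negative. They summed to 223 and 223 CPM in the controls and to 257, 220 and 244 CPM under blue light, with none at 0. What part peripheral nerve has in the level of Prph was not tested. With 1 library fewer in the fit these calls did not all hold: Prkca, Kcng4 and Prph missed the threshold when control A, control B or blue C was dropped, and Prkca also when blue B was.

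The remaining lists held no call in edgeR, where 2.22% of all tested genes were called and 16.3% had an unadjusted p under 0.05. DESeq2 called 8.7% of its genes and limma-voom 2.41%. Of 27 other amacrine genes 0 were called, 4 had an unadjusted p under 0.05, and DESeq2 called 1 and limma-voom 0. The 2 with the smallest p were Sox2, a factor of Muller glia and cholinergic amacrine cells, at 16.8 and 15.6 CPM against 21.9, 20.5 and 24.1 CPM (log2 fold change 0.45, edgeR adjusted p = 0.123), and Th, the enzyme of dopaminergic amacrine cells, at 2.15 and 2.47 CPM against 1.61, 1.43 and 1.43 CPM (log2 fold change -0.63, edgeR adjusted p = 0.245). Of 11 other horizontal genes 0 were called, 2 had an unadjusted p under 0.05, and DESeq2 called 2 and limma-voom 0. The septin gene Sept4 had a log2 fold change of -0.43 (edgeR adjusted p = 0.0632) and the anion exchanger Slc4a3 one of 0.23 (edgeR adjusted p = 0.180).

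Genes of GABA and glycine synapses, the contacts amacrine and horizontal cells make, gave no call, where 2.22% of all tested genes were called. Over all tested genes 16.3% had an unadjusted p under 0.05 and 47.4% had an interval within 1.5-fold, while DESeq2 called 8.7% of its genes and limma-voom 2.41%. Of 17 genes 0 were called, 2 had an unadjusted p under 0.05, DESeq2 called 1 and limma-voom 0, and the 95% intervals of 15 lay within 1.5-fold. Gabrr1, a GABA-C receptor subunit of bipolar cells, was at 47.2 and 44.9 CPM against 33.5, 38.6 and 35.4 CPM (log2 fold change -0.36, edgeR adjusted p = 0.129). The glycine receptor subunit Glra1 had a log2 fold change of 0.26 (edgeR adjusted p = 0.262). Of 13 genes that ganglion cells raise after axon injury 0 were called, 3 had an unadjusted p under 0.05, and DESeq2 called 1 and limma-voom 0; 11 had a positive log2 fold change and the median was 0.28. Atf3, a stress-induced transcription factor, was at 4.65 and 4.99 CPM against 6.998, 14.5 and 9.99 CPM (log2 fold change 1.12, SE 0.32, edgeR adjusted p = 0.165). The growth cone protein Gap43 was at 7.91 and 6.29 CPM against 9.33, 10.2 and 9.81 CPM (log2 fold change 0.46, edgeR adjusted p = 0.207). Both stood above the controls in every blue library, as did 4 of the 13 genes in all, against 15.6% of all tested genes. In whole-eyeball RNA these levels cannot be assigned to ganglion cells.

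**Figure D5:**
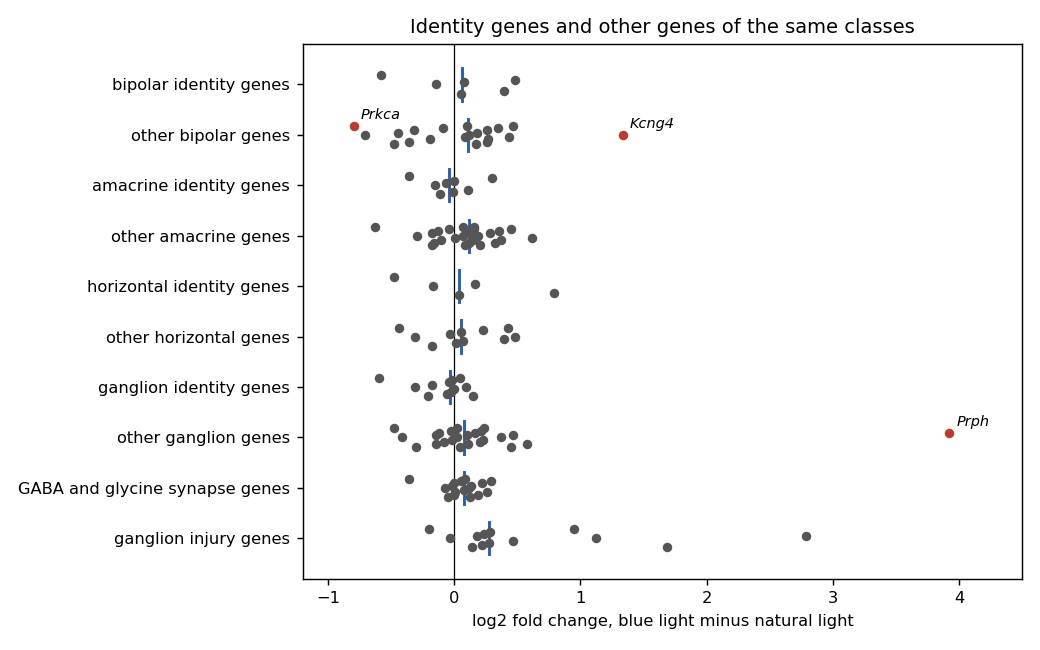
Log2 fold change (blue light minus natural light, x axis) of every tested gene in the 4 identity classes and in 6 further lists; red points passed at an adjusted p under 0.05 and blue bars are list medians. Only Prkca, Kcng4 and Prph passed in these lists.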

How the data were processed

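Per the labels' protocols, eyeball RNA was isolated with Trizol, depleted of ribosomal RNA by probe capture, fragmented and reverse-transcribed with random primers. The tools named in the submitters' processing notes are HISAT2, StringTie, bcl2fastq 2.0, DESeq2 and limma, with mm10 as the build and no role given for any of them. The deposited mRNA values were read as estimated counts for each gene symbol, without normalisation by the authors; they are whole numbers, so rounding changed nothing. Their low values are uneven, as if 1 fragment added more than 1 unit, so no counting intervals are given. Each column was assigned by its sample's title, and the miRNA table was not used here.

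The 2 control and 3 blue libraries were compared with edgeR 4.0.16 (R 4.3.3; TMM, filterByExpr, quasi-likelihood F-test, Benjamini-Hochberg over all tested genes, threshold 0.05). All 31 genes passed the low-count filter. SE is the absolute log2 fold change divided by the square root of F. DESeq2 1.42.0 and limma-voom (limma 3.58.1) were alternatives, as were other scalings and filters, a block and leaving out each library. On simulated counts of 18642 genes the fit recovered 51 of 99 genes changed 2-fold and 68 of 97 changed 4-fold, and 17 of its 136 calls (12.5%) were false, above the nominal share; changes under 2-fold, the range of the 31 genes, were not simulated. Values are given for members past the threshold, the 4 with the smallest p in each class and 13 fixed genes, and from each further list for the called genes and the 2 with the smallest p; other members are given more briefly. Members and lists were chosen with earlier results of these data known. Scaling on 81 other inner retinal genes, summing overlapping genes and dividing values by 4 were chosen after seeing the data.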

Additional observations from a re-analysis of the deposited data

How the results depend on the processing

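The count of 0 called among the 31 genes held with library totals, DESeq2's size factors, TMM without lens, muscle and blood genes, no low-count filter, limma-voom, the replicate block, values divided by 4 and each library left out, and with a mean CPM of at least 5, where 28 of the 31 were tested (Lhx1, Onecut1 and Pou4f3 were not). DESeq2's Wald test called 7 of them: 3 bipolar, 2 amacrine, 1 horizontal and 1 ganglion gene. It also called 4 other bipolar, 1 other amacrine, 2 other horizontal, 3 other ganglion, 1 ganglion injury and 1 synapse gene, and 1681 genes in all against 421 in edgeR. Scaling on other inner retinal genes gave 1 member, Bhlhe23 (1 bipolar gene), 1 other horizontal and 3 other ganglion genes. The 81 scaling genes came from the lists of other bipolar, amacrine, horizontal and ganglion genes. The counts of those lists are therefore not independent of this scaling. Summing overlapping genes gave 1 amacrine and so 1 member call, that of the sum of Slc6a9 and Ccdc24, which is not a call of Slc6a9 itself. With a mean CPM of at least 5 there were 1 other horizontal, 2 other ganglion and 3 other bipolar calls. Library totals as the only scaling gave 274 calls over all genes, 124 higher and 150 lower, against 126 and 295.

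With the letter as a replicate block there were 0 calls over all genes, 0 other bipolar and 0 other ganglion calls in edgeR, with 5 of the 31 members at an unadjusted p under 0.05. No control has the letter C, so in the block fit the light effect rested on the A and B libraries, without blue C. Little was then left to measure the spread, and the lack of calls cannot be read as a lack of change. The deviations of same-lettered libraries correlated at -0.30 for A and -0.25 for B, and the labels state no pairing. Leaving out 1 library gave 0 to 311 calls over all genes, 0 to 2 other bipolar and 0 to 1 other ganglion calls. The median log2 fold change then ran from -0.11 to 0.12 for all members, from -0.061 to 0.23 for bipolar, from -0.11 to 0.080 for amacrine, from -0.049 to 0.16 for horizontal and from -0.11 to 0.11 for ganglion genes. A lone control was taken to have the blue libraries' variability.

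Of 22 named members 13 kept their sign under every alternative that tested them (15 for Lhx1, 16 for the others), among them the 7 with an unadjusted p under 0.05, and 9 did not. Gad1 was at 0.016 with DESeq2's size factors, 0.035 with library totals, 0.0015 with the CPM filter and 0.016 in DESeq2. Slc17a6 was at 0.0013, 0.022 and 0.0016 with DESeq2's size factors, library totals and DESeq2, and at 0.047 with the replicate block. Nefl and Pou4f1 were at 0.00027 and 0.021 with library totals. Rbpms was at -0.0041 in limma-voom, -0.041 with the block and -0.057 when scaled on other inner retinal genes, and Vsx1 at -0.020 with the block. With 1 library left out, values ran from -0.17 to 0.21 for Gad1, -0.19 to 0.21 for Slc17a6, -0.12 to 0.063 for Nefl, -0.10 to 0.091 for Pou4f1, -0.041 to 0.069 for Rbpms, -0.016 to 0.22 for Vsx1, -0.34 to 0.050 for Calb1, -0.50 to 0.19 for Nefh and -0.0023 to 0.34 for Onecut1. The cause of these changes was not tested.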

Other observations

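Among the further bipolar genes, 2 were chosen for mention after their values were seen. Otx2, a homeobox factor of photoreceptors and bipolar cells, was at 146 and 125 CPM in the controls and at 98.3, 113 and 106 CPM under blue light (log2 fold change -0.36, edgeR adjusted p = 0.162). Sebox, a homeobox gene, was at 32.7 and 32.1 CPM against 17.3, 19.0 and 23.3 CPM (log2 fold change -0.70, edgeR adjusted p = 0.0759). Neither passed in edgeR, and in both every blue library lay below the controls. Of the 20 further bipolar genes 12 did not overlap between the groups, 6 higher and 6 lower under blue light, against 35.6% of all tested genes.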
